A study of Mus musculus with 8 samples.

Results

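The genes described here are 43 interferon-induced genes, measured in the striatum of R6/2 mice and of wild-type (WT) control mice. They were named in a list made for this work: every non-control probe counted whose gene name in the scanner files, or gene symbol in the authors' deposited table, was on the list. The list was put together with earlier results of these same data known, that is, it was chosen by measured values of the same contrast, R6/2 minus WT on these arrays. The members' differences are therefore given as a description and support no claim about the list. It was found on 57 of the array's 55681 probes, and all 43 members, of 24520 named genes, had at least 1. A member was tested when 1 of its probes was well above background on at least 4 arrays. On that rule 41 members were tested, each on all 8 arrays above background, and Mx1 and Oas3 were not, since neither was well above background on any array. The list was divided into 33 genes induced mainly by type I interferon and 10 induced mainly by interferon gamma. Many genes answer to both interferons, so the division follows the usual assignment and is not sharp.

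Total RNA was taken from the striatum of male mice aged 4 weeks, 4 samples from R6/2 mice and 4 from WT mice, and each sample was labelled with Cy3 and put on its own 1-colour Agilent array. R6/2 mice are a model of Huntington's disease with an early and fast course: in all tissues, under the human promoter, they express exon 1 of HTT with a lengthened CAG tract. The labels give no repeat length, strain background or litter, and name no agent given to either genotype. They do not say that each sample is a separate animal, so p-values measure the spread between these samples only, which may be technical.

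Interferons are secreted proteins by which cells warn one another of infection. Type I interferons act through a receptor whose kinases activate STAT2, which joins IRF9 in a complex that binds a DNA element called ISRE. Interferon gamma acts through a receptor of its own, through another DNA element, GAS, and through IRF1, whose sites resemble the ISRE. In brain, microglia, endothelium, astrocytes and neurons can all carry such responses, so the level in bulk tissue cannot tell how many cells responded from how strongly each did.

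RefSeq promoters (build GRCm38.p6, 250 bases before to 50 after the start of transcription) were matched to 31 of the 43 members, 23 of type I and 8 of gamma. Those of 7 members are shown because the array results below turn on these genes: the first 4 are type I members, the last 3 gamma members. Each line gives the 160 bases before the start, 5′ to 3′ on the gene's strand, and capitals mark matches to an ISRE core, searched as GAAANNGAAA on both strands. Matches may overlap one another, as in Isg15 and Irgm1.
Ifit1, chr19:34640729-34640888, plus strand: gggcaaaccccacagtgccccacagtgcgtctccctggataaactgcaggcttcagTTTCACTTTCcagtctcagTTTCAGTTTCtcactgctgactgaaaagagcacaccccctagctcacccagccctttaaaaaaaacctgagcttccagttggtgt
Ifit3, chr19:34583369-34583528, plus strand: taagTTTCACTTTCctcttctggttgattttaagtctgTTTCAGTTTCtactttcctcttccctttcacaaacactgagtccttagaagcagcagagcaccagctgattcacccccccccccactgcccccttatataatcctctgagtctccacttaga
Rsad2, chr12:26456453-26456612, minus strand: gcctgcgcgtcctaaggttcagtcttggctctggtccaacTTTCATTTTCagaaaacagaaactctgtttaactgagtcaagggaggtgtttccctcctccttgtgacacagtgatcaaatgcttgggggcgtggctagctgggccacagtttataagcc
Isg15, chr4:156200819-156200978, minus strand: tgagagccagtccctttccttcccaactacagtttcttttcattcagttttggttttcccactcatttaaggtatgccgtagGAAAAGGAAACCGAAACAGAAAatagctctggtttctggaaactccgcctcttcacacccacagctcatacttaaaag
Tgtp2, chr11:49064213-49064372, minus strand: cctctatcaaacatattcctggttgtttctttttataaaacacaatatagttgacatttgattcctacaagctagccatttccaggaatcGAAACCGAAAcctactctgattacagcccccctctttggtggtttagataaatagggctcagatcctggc
Igtp, chr11:58199396-58199555, plus strand: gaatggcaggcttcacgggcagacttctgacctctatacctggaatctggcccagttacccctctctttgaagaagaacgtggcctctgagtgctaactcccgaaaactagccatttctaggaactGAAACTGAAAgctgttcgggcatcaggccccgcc
Irgm1, chr11:48871421-48871580, minus strand: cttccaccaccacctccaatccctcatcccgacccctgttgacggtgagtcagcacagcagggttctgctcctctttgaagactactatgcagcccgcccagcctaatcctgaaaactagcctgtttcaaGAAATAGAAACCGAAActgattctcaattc

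The core occurred in the 300-base promoters of 14 of 23 type I genes (60.9%) and of 6 of 8 gamma genes (75%), against 3.99% of all 27025 genes in the RefSeq table. A GAS motif, searched as TTCNNNGAA, occurred in 7 of 23 type I genes (30.4%) and in 5 of 8 gamma genes (62.5%), against 9.55% of all genes. Ifit1 held 2 ISRE cores, which began 104 and 85 bases before the start, and no GAS match. Tgtp2 and Igtp each held both, with the GAS match 81 bases before the start in Tgtp2 and 45 in Igtp, just upstream of the ISRE core. Matches describe these letters only. Usp18, Mx1, Mx2, Oas1b, Oas2, Ifi27, Iigp1, Parp14, Rtp4, Gbp4, Zbp1 and Dhx58 were not matched.

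All levels below are log2 of the processed signal minus log2 of the same array's 75th percentile, so 0 is a probe as bright as that percentile and a step of 1 is a doubling. Levels are compared between arrays and never between probes. Differences are R6/2 minus WT, with limma's standard error (SE), and p-values were adjusted over all 35121 probes tested by the Benjamini-Hochberg method. A gene was called at an adjusted p under 0.05, and a gene with several probes was read from its brightest tested probe. The share of probes well above background ran from 61.5% to 67.7% over the arrays, and 0 spots were saturated. Of 15 markers of striatal projection neurons, all tested, 14 had a negative difference and Tac1 a positive one (0.21), and 8 were called, all lower in R6/2, or 3 with the replicate block described below. The 4 R6/2 arrays lay in 1 row of the slide and the 4 WT arrays in the other, so slide row and genotype cannot be told apart. WT 3 stood apart from the other 3 WT arrays on the gamma members, so results that turn on it are given with and without it. That choice was made after the values were seen, so p-values of members without WT 3 are a description and no support. WT 3 also departed over the whole array: it was the lowest of the 8 arrays for 30.7% of all genes tested. The next share was 14.4%, for R6/2 4. WT 3 was also far above the mean of the other WT arrays for genes of acute inflammation and of neutrophils, named after their values were seen: Lrg1 by 5.79, Lcn2 by 5.75, S100a8 by 4.41, S100a9 by 4.06 and Hp by 3.29. Their part in the members' values was not tested.

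Type I members were mostly higher in R6/2 striatum, while gamma members were not. Of the 31 type I members tested, 26 had a positive difference and 5 a negative one, with a median of 0.35. Of the 10 gamma members, 3 were positive and 7 negative, with a median of -0.17. Over all 17755 genes tested the median was 0.02. Only 1 member, Ifit1, was called, and it was higher in R6/2. Over all genes tested, 1.94% were called, 0.467% higher and 1.47% lower. At an unadjusted p under 0.05, 12 type I members were higher and 0 lower, and 0 gamma members were higher and 1 lower, against 8.99% of all genes higher and 9.96% lower.

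The R6/2 arrays lay wholly above the WT arrays for 9 type I members, namely Ifit1, Ifit2, Ifit3, Usp18, Rsad2, Oasl2, Mx2, Ddx58 and Rtp4, and for 0 gamma members. They lay wholly below for 1 member, Irf8. Such full separation was seen for 7.61% of all genes in the upward direction and 6.78% in the downward. Without WT 3, chosen after that array was seen to stand apart, 19 of 31 type I members and 3 of 10 gamma members had all R6/2 arrays above the remaining 3 WT arrays, and 9.61% of all genes did. The median difference was then 0.43 for type I and 0.21 for gamma members, with 0.01 over all genes, so the median of the gamma members changed sign with that array. Differences without WT 3 were positive for 29 of 31 type I members, 7 of 10 gamma members and 9108 of all 17755 genes.

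**Figure D1:**
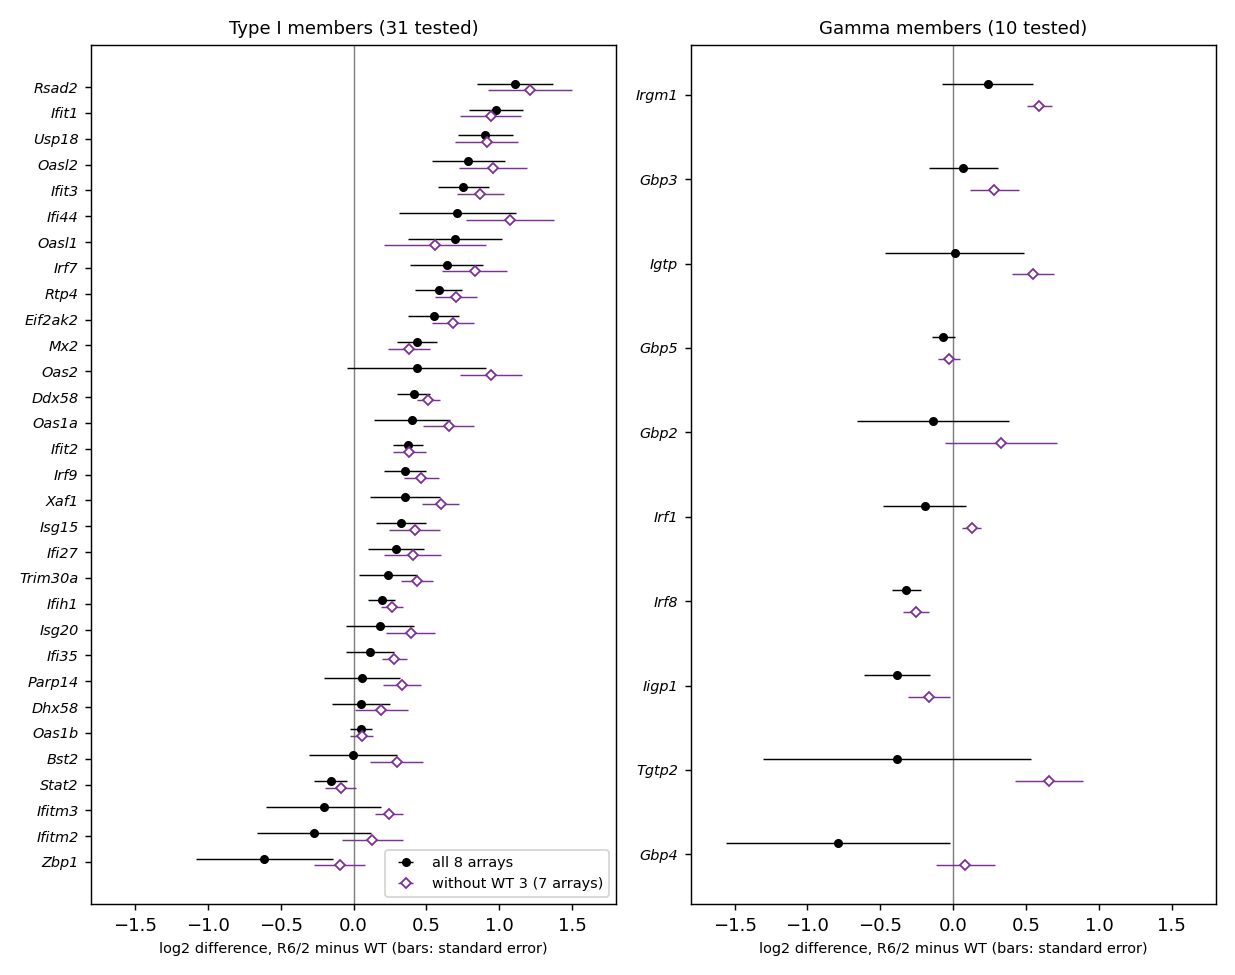
Difference between R6/2 and WT striatum (log2, with its SE) for each of the 31 type I members (left panel) and 10 gamma members (right panel), with all 8 arrays in black and without WT 3 in open diamonds. Rsad2 heads the type I panel with either set of arrays (1.11 and 1.21), and the gamma members other than Irf8, Iigp1 and Gbp5 lie on the positive side once WT 3 is left out.

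The IFIT proteins bind viral RNA that lacks host cap marks and hold back its translation. Ifit1 had levels of -2.10, -2.53, -2.76 and -2.74 on the R6/2 arrays and of -3.31, -3.27, -3.62 and -3.84 on the WT arrays. The highest WT array was thus well below the lowest R6/2 array. Its probe lies at chr19:34723796-34723855 (build mm9), and the group means were -2.53 ± 0.31 in R6/2 and -3.51 ± 0.27 in WT (SD, n = 4 each). The difference was 0.98 ± 0.18 (SE), a 1.97-fold higher signal (limma, adjusted p = 0.0489). That call sits at the threshold: leaving out any 1 of the 8 arrays gave adjusted p between 0.0782 and 0.123 with differences from 0.83 to 1.06, and with normexp background correction the difference was 0.51 (adjusted p = 0.0268).

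Ifit3, a partner of the other IFIT proteins, had levels of 0.16, -0.35, -0.01 and 0.19 on the R6/2 arrays and of -1.11, -0.72, -0.41 and -0.78 on the WT arrays. R6/2 2 and WT 3 came close to each other, and the other 6 arrays were far apart. The difference was 0.75 ± 0.17 (SE; 1.69-fold; limma, adjusted p = 0.0768), and only normexp among the alternatives run called it (adjusted p = 0.0376). Ifit2 had levels of -2.34, -2.36, -2.66 and -2.27 on the R6/2 arrays and of -2.70, -2.94, -2.76 and -2.73 on the WT arrays. Here R6/2 3 was barely above the highest WT array. The difference of Ifit2 was 0.37 ± 0.10 (SE; limma, adjusted p = 0.121). WT 3 was the highest WT array for Ifit3, 0.46 above the mean of the other 3, but not for Ifit2 (0.03) or Ifit1 (-0.14).

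USP18 removes the ubiquitin-like protein ISG15 from its targets and blocks the type I receptor, so it limits the response. Usp18 had levels of -1.63, -2.41, -2.06 and -1.95 on the R6/2 arrays and of -2.98, -2.57, -2.89 and -3.23 on the WT arrays. The genotypes did not overlap, with R6/2 2 and WT 2 nearest to each other. The difference was 0.90 ± 0.19 (SE; 1.87-fold; limma, adjusted p = 0.0618), the second smallest p among the members. Its call depended on the setting: normexp, quantile scaling and a filter that asked for all 8 arrays gave adjusted p of 0.0336, 0.0472 and 0.0473. Isg15 itself had levels of 1.07, 0.90, 0.62 and 0.48 on the R6/2 arrays and of 0.34, 0.59, 0.72 and 0.12 on the WT arrays. These overlapped, and the difference was 0.33 ± 0.17 (SE; limma, adjusted p = 0.382). A dimmer second probe of Isg15 gave 0.01, so the probes disagree on its size. On that probe WT 4 was at -1.73 and the other WT arrays between -3.89 and -3.58, with the R6/2 arrays between -3.55 and -2.87.

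RSAD2, or viperin, makes a modified nucleotide that ends viral RNA chains early. Rsad2 had levels of -1.89, -2.58, -2.78 and -3.23 on the R6/2 arrays and of -3.71, -3.87, -3.42 and -3.91 on the WT arrays. The R6/2 arrays spread over more than a unit, and the lowest of them was near WT 3. The difference was the largest among the members, 1.11 ± 0.26 (SE; 2.15-fold; limma, adjusted p = 0.0828), and array weights alone among the alternatives called it (adjusted p = 0.0422). Its size and rank depended on the background correction: with normexp it was 0.52, below Ifit3 (0.67), Oasl2 (0.58) and Rtp4 (0.55). For the other 3 membrane restriction factors WT 3 was the highest of the 8 arrays, and their sign turned on it. Bst2, which tethers budding virus, had a difference of -0.00 ± 0.30 with all arrays and 0.30 ± 0.18 without WT 3. Ifitm2 and Ifitm3, which hinder viral fusion, had differences of -0.27 ± 0.39 and -0.21 ± 0.40 with all arrays and 0.13 ± 0.21 and 0.24 ± 0.10 without WT 3.

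The OAS proteins sense double-stranded RNA and, for the enzymatically active ones, switch on RNase L. Oasl2 had levels of -0.73, -1.40, -1.26 and -1.49 on the R6/2 arrays and of -2.09, -1.87, -1.50 and -2.57 on the WT arrays. R6/2 4 and WT 3 were almost level, and the rest did not overlap. The difference was 0.79 ± 0.25 (SE; 1.73-fold; limma, adjusted p = 0.161). Oasl1, which represses translation of Irf7 in mouse, had a difference of 0.70 ± 0.32, with WT 1 and WT 2 inside the R6/2 range. Oas1a (0.40 ± 0.26) and Oas2 (0.43 ± 0.48) were positive with WT 3 the highest array for both. Without WT 3 the difference of Oas2 was 0.94 ± 0.21 (limma, adjusted p = 0.0889), and that of Oas1a 0.65 ± 0.17 (adjusted p = 0.123). Oas1b gave 0.05 ± 0.07, the smallest positive difference of the type I class, and all 3 of its tested probes lay between 0.05 and 0.08.

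Mx2, a dynamin-like GTPase, had levels of -1.14, -1.66, -1.32 and -1.61 on the R6/2 arrays and of -1.70, -1.76, -2.04 and -1.97 on the WT arrays. R6/2 2 and WT 1 were nearly level, and WT 3 was the lowest of all. The difference was 0.44 ± 0.14 (SE; limma, adjusted p = 0.161). Rtp4, a chaperone of G-protein-coupled receptors that type I interferon induces, had levels of 0.88, 0.39, 0.45 and 0.45 on the R6/2 arrays and of -0.07, -0.04, 0.30 and -0.36 on the WT arrays. R6/2 1 was high and the other 3 R6/2 arrays close together. The difference was 0.59 ± 0.16 (SE; 1.5-fold; limma, adjusted p = 0.121).

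**Figure D2:**
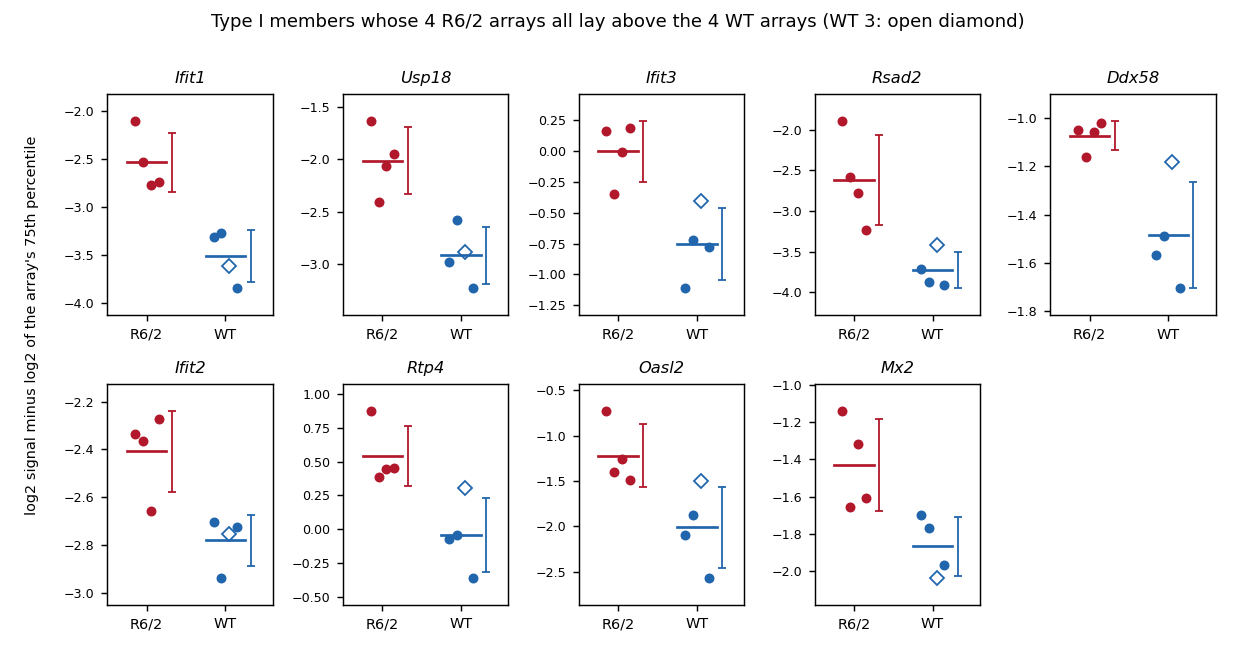
Level of the 9 type I members whose R6/2 arrays all lay above the WT arrays, 1 point per array (log2 signal minus log2 of the array's 75th percentile; R6/2 left, WT right), with the mean as a line and the SD as a bar (n = 4 each). WT 3, the open diamond, is the highest WT array for Ifit3, Rsad2, Ddx58, Rtp4 and Oasl2 and the lowest for Mx2.

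Among the sensors of foreign RNA, Ddx58, which encodes RIG-I, had levels of -1.05, -1.16, -1.06 and -1.02 on the R6/2 arrays and of -1.57, -1.49, -1.18 and -1.70 on the WT arrays. The R6/2 arrays were tightly grouped, and WT 3 lay just under them. The difference was 0.41 ± 0.11 (SE; limma, adjusted p = 0.12). Without WT 3 it was 0.51 ± 0.08 and was called (adjusted p = 0.0373), as were 2 of 41 members and 1.85% of all genes in that fit. WT 3 was left out after it was seen to stand apart, so that p-value is a description and no support. Eif2ak2, the kinase PKR, had a difference of 0.55 ± 0.17 (adjusted p = 0.161), with WT 3 above R6/2 2 and the other 3 WT arrays below all R6/2 arrays. Ifih1, which encodes MDA5, gave 0.19 ± 0.09, and Dhx58, which encodes LGP2, gave 0.05 ± 0.20. Zbp1, a sensor of Z-form nucleic acid, was the most negative type I member (-0.61 ± 0.47 with all arrays and -0.10 ± 0.18 without WT 3), with WT 3 at -1.85 and the other 7 arrays between -4.19 and -3.47.

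The factors that drive type I genes were mixed. Irf7, the amplifier of the response, had levels of -3.97, -4.26, -3.996 and -3.82 on the R6/2 arrays and of -4.34, -4.90, -4.08 and -5.28 on the WT arrays. WT 3 fell inside the R6/2 range and the other WT arrays below it. The difference was 0.64 ± 0.25 (SE; limma, adjusted p = 0.251). Irf9 gave 0.35 ± 0.14 (adjusted p = 0.268), while Stat2 gave -0.16 ± 0.11 (adjusted p = 0.534). The remaining type I members, Isg20, Ifi27, Ifi35, Ifi44, Xaf1, Parp14 and Trim30a, all had positive differences, from 0.06 for Parp14 to 0.71 for Ifi44, and their genotypes overlapped. Xaf1, a promoter of cell death, had levels of -1.003, -1.34, -0.81 and -0.93 on the R6/2 arrays and of -1.64, -1.55, -0.63 and -1.66 on the WT arrays, so that WT 3 alone stood in the way of a separation.

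Irf8, a factor that microglia need for their development and that interferon gamma induces, was the only member with all R6/2 arrays below the WT arrays. It had levels of -0.37, -0.25, -0.39 and -0.30 on the R6/2 arrays and of -0.13, -0.18, 0.20 and 0.09 on the WT arrays. The gap between R6/2 2 and WT 2 was small. The difference was -0.32 ± 0.10 (SE; limma, adjusted p = 0.158), and -0.25 ± 0.09 without WT 3 (adjusted p = 0.208). Of 20 microglial markers tested, 15 were lower in R6/2, with a median of -0.12 and 0 called. WT 3 was the highest array for 13 of the 20, and without it the median was -0.08. The markers' summed signal, in units of the array's 75th percentile, was 256 to 308 on the R6/2 arrays. It was 295 to 352 on the WT arrays, and 295 to 300 on the WT arrays other than WT 3. Such a sum mainly follows its brightest probes, here Siglech and Itgam. The part of these markers in the value of Irf8 was not tested. Iigp1, an immunity-related GTPase, had the second smallest p of the class. It had levels of -1.60, -1.61, -1.42 and -2.02 on the R6/2 arrays and of -1.57, -1.41, -0.62 and -1.52 on the WT arrays. These overlapped, and the difference was -0.38 ± 0.23 (SE; limma, adjusted p = 0.439), and -0.16 ± 0.14 without WT 3.

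The other gamma members, like Irf8 and Iigp1, were highest on WT 3. The following ones are described because that array stood out, a choice made after their values were seen. Tgtp2 encodes an immunity-related GTPase and has a near-identical copy, Tgtp1, that its probe may also detect. It had levels of -0.29, -0.72, -0.63 and -1.11 on the R6/2 arrays and of -0.95, -1.40, 2.82 and -1.69 on the WT arrays. WT 3 was 4.17 above the mean of the other 3 WT arrays. The difference was -0.38 ± 0.92 with all arrays and 0.66 ± 0.24 without WT 3 (limma, adjusted p = 0.868 and 0.219).

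Igtp and Irgm1, which act with such GTPases on the vacuoles of intracellular parasites in mouse, behaved alike. Igtp had levels of -0.31, -0.52, -0.86 and -0.77 on the R6/2 arrays and of -1.06, -1.14, 0.99 and -1.29 on the WT arrays. Irgm1 had levels of -0.78, -0.88, -0.85 and -0.65 on the R6/2 arrays and of -1.46, -1.42, 0.04 and -1.27 on the WT arrays. For both genes all R6/2 arrays lay above WT 1, WT 2 and WT 4 and below WT 3. The difference of Igtp was 0.01 ± 0.48 with all arrays and 0.55 ± 0.15 without WT 3 (adjusted p = 0.124). That of Irgm1 was 0.24 ± 0.31 with all arrays and 0.59 ± 0.08 without WT 3, where it was called (limma, adjusted p = 0.034). WT 3 was left out after gamma members were seen to be high on it, so that p-value is a description and no support. The dimmer second probe of Irgm1 gave -0.07 with all arrays and 0.19 without WT 3 (limma, adjusted p = 0.754). Its genotypes overlapped in both, so it did not bear out that call.

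Guanylate-binding proteins are large GTPases that coat pathogens and their vacuoles. Gbp4 had levels of -2.83, -2.80, -2.79 and -3.50 on the R6/2 arrays and of -3.24, -2.83, 0.43 and -3.11 on the WT arrays. Apart from WT 3 the genotypes overlapped, and the difference was -0.79 ± 0.77 with all arrays and 0.08 ± 0.20 without WT 3. Gbp2 (-0.14 ± 0.52) and Gbp3 (0.07 ± 0.24) overlapped as well, and without WT 3 their differences were 0.33 ± 0.39 and 0.28 ± 0.17. Gbp5 was read from a bright probe that hardly varied (-0.07 ± 0.08), while its dimmer probe gave -0.48 with WT 3 at 0.09 and the other 7 arrays between -2.87 and -2.17. Irf1, the factor that carries much of the gamma response, had levels of -0.21, -0.18, -0.18 and -0.27 on the R6/2 arrays and of -0.29, -0.41, 0.95 and -0.32 on the WT arrays. The R6/2 arrays were again just above WT 1, WT 2 and WT 4, and the difference was -0.19 ± 0.28 with all arrays and 0.13 ± 0.06 without WT 3 (limma, adjusted p = 0.773 and 0.36).

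**Figure D3:**
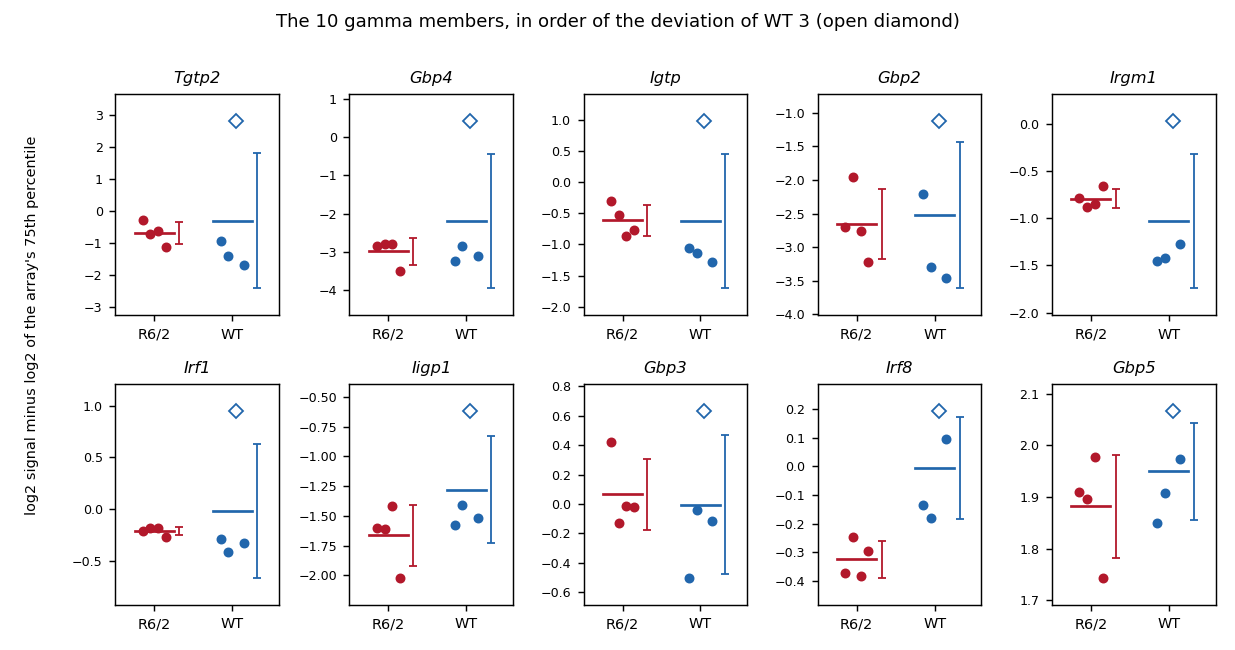
Level of the 10 gamma members, 1 point per array (log2 signal minus log2 of the array's 75th percentile; R6/2 left, WT right), with the mean as a line and the SD as a bar (n = 4 each). WT 3, the open diamond, is the highest of the 8 arrays for all 10, from 4.17 above the mean of the other WT arrays for Tgtp2 to 0.16 above for Gbp5.

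WT 3 was the highest of the 8 arrays for 10 of 10 gamma members and for 12 of 31 type I members, against 16.2% of all genes tested. It lay over 1 log2 unit above the mean of the other WT arrays for 6 of 10 gamma members and 8 of 31 type I members, against 2.68% of all genes. The type I members over a unit higher on it were Oas2, Zbp1, Ifitm3, Ifitm2, Ifi44, Bst2, Parp14 and Oas1a. Ifit1, Usp18, Mx2, Oasl1 and Ifit2 were not among them, with WT 3 between -0.55 and 0.04 from the other WT arrays. The median deviation of WT 3 was 1.35 over the gamma class, 0.54 over the type I class and -0.07 over all genes.

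Averaged over members, each gene set against its own mean over the 8 arrays, the type I class stood at 0.40, 0.02, 0.18 and 0.10 on the R6/2 arrays and at -0.31, -0.24, 0.33 and -0.48 on the WT arrays. R6/2 1 was the highest and WT 4 the lowest, and WT 3 ranked with the R6/2 arrays. The gamma class stood at 0.02, -0.01, -0.09 and -0.31 on the R6/2 arrays and at -0.26, -0.32, 1.34 and -0.37 on the WT arrays. The other 7 arrays were within a narrow band and WT 3 far above it. R6/2 1 was the highest array for 10 type I members and R6/2 4 for 7, against 11.1% and 17.7% of all genes, and WT 4 was the lowest for 16, against 7.08% of all genes.

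Arrays with the same replicate number shared a position on the slide and deviated together, so they were also set against each other in pairs. In pairs 1, 2 and 4 the R6/2 array was higher for 30, 26 and 28 of the 31 type I members, and in pair 3 for 15. Over all genes the share higher in R6/2 was 50.3%, 54.1%, 51.2% and 56.5% in those pairs. In pair 3, the R6/2 array was higher for 0 of 10 gamma members, and in the other pairs for 7, 6 and 6. With the pairs as a block, 184 genes (1.04%) were called over all, against 344 without it, and Ifit1 stayed the only member called (limma, adjusted p = 0.0482).

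Of the genes that make, sense and pass on the interferon signal, 0 were called. Over all genes tested 1.94% were called, so lists this short would hold few calls or 0, and that count says little about them. Of 21 interferon ligands, 17 were on the array and 10 tested, with 0 called, 7 negative and a median of -0.15. Ifnb1 and Ifng, the genes of interferon beta and gamma, were among the 7 not tested. Ifna11, an interferon alpha gene, gave -0.91 ± 0.32 (limma, adjusted p = 0.201), and Ifnl3 gave -0.14 ± 0.07. Of 11 genes of receptors and of the JAK-STAT relay, 0 were called and 8 were positive (median 0.06). Ifnlr1, a receptor chain for interferon lambda, gave 0.49 ± 0.22 (limma, adjusted p = 0.318). Of 8 inhibitors, 0 were called and 4 were positive (median -0.01). Ptpn2, a phosphatase of JAK and STAT proteins, gave 0.18 ± 0.07 and Pias1, a SUMO ligase that restrains the pathway, -0.14 ± 0.07. Of 19 genes of nucleic acid sensing tested, 0 were called and 14 were positive (median 0.09). Adar, which edits double-stranded RNA, gave 0.22 ± 0.08 and Tlr9, a DNA sensor, -0.20 ± 0.07.

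Interferon-induced genes outside the 43 members were read in the same way. Of 40 other type I induced genes tested, 0 were called, 30 were positive and the median was 0.11. Psme1, a proteasome activator subunit, had levels of 2.58, 2.46, 2.38 and 2.59 on the R6/2 arrays and of 2.17, 2.05, 2.25 and 2.15 on the WT arrays. All R6/2 arrays were higher, and the difference was 0.35 ± 0.08 (limma, adjusted p = 0.0755). Cmpk2, the nucleotide kinase gene next to Rsad2, went the other way (-0.46 ± 0.12; adjusted p = 0.11).

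Of 13 other gamma induced genes tested, 11 were negative, the median was -0.22 and 1, Ido1, was called. Ido1 encodes an enzyme that starts the breakdown of tryptophan towards kynurenine. It had levels of -1.99, -2.03, -2.35 and -2.43 on the R6/2 arrays and of -1.15, -1.31, -1.54 and -1.34 on the WT arrays. All R6/2 arrays were lower, WT 3 was the lowest WT array, and Ido1 was lower by a log2 difference of -0.86 ± 0.13 (SE; 1.82-fold; limma, adjusted p = 0.0268). It was called in 2 of the 8 fits that left out 1 array, with adjusted p from 0.032 to 0.0844. Of 18 antigen presentation genes tested, 0 were called and 15 were negative (median -0.22), but WT 3 was the highest array for 13. Without WT 3 the medians of the other gamma genes and of antigen presentation were 0.08 and 0.09. H2-DMa and H2-DMb1, chaperones of peptide loading on class II molecules, gave -0.57 ± 0.23 and -0.89 ± 0.36.

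**Figure D4:**
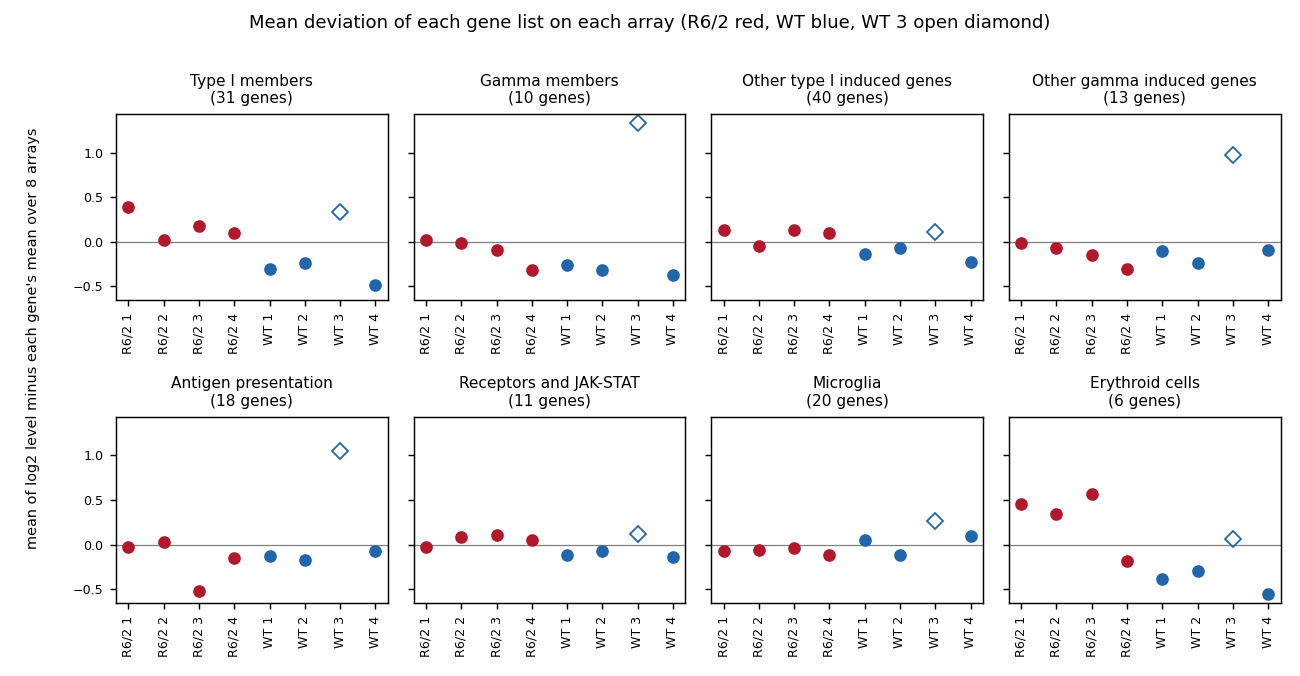
Mean deviation of 8 gene lists on each array (mean of log2 level minus each gene's mean over the 8 arrays; R6/2 arrays left in red, WT arrays right in blue, WT 3 as an open diamond). The gamma members, the other gamma induced genes and antigen presentation peak on WT 3, at 1.34, 0.97 and 1.05, while the type I members are highest on R6/2 1, at 0.40.

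Markers of other cell types were set beside these values. Erythroid markers were higher in R6/2 for 6 of 6 genes tested, with a median of 0.57 and 0 called. Their summed signal was 231 to 392 on the R6/2 arrays and 181 to 246 on the WT arrays, the direction of the type I members. Markers of ependyma and choroid plexus had a median of 0.26 and 2 of 14 called, both higher. These were Cfap206 (1.29 ± 0.19; limma, adjusted p = 0.0259) and Enkur (0.91 ± 0.16; limma, adjusted p = 0.0416). With the replicate block neither was called (adjusted p = 0.0611 and 0.0733), and each was called in 1 of the 8 fits that left out 1 array. The summed signal of that list, which mainly follows Ttr, was 52.1 to 190 on the R6/2 arrays and 58.9 to 245 on the WT arrays. Of 18 lymphocyte markers, 9 were tested, and the other 9, among them Cd3d, Cd3g, Cd8a, Cd8b1, Ms4a1, Ncr1, Klrb1c and Gzmb, were above background on fewer than 4 arrays. Among those tested, Il2rb was at least 4.35-fold lower in R6/2, where 0 of 4 arrays had it well above background. Its measured means were -6.13 in R6/2 and -3.28 in WT (limma, adjusted p = 0.0102). Il2rb met the rule for testing only through the 4 WT arrays, where it was high, so that p-value is a description and no support. Cd2 was higher in R6/2 (1.10 ± 0.15; limma, adjusted p = 0.019). Cd2 was not called with the replicate block (adjusted p = 0.0538) and was called in 3 of the 8 fits that left out 1 array. The summed signal of the lymphocyte markers was 6.52 to 7.92 on the R6/2 arrays and 8.03 to 8.76 on the WT arrays. That sum mainly follows its brightest probe, Cd4, with mean levels of 2.09 in R6/2 and 2.51 in WT. Of the 9 tested, 4 had a positive difference and 5 a negative one, so the sum gives no direction for the list. The medians of astrocyte, endothelial and border macrophage markers were -0.09, -0.15 and -0.07, with 0 called. Without WT 3 these medians were -0.08, -0.04 and 0.10, so that of the border macrophage markers changed sign with that array. The part of these cells in the members' differences was not tested.

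In the authors' deposited table, 144 probes had an adjusted p under 0.05 and 0 of them were probes of members. The lowest adjusted p among member probes in that table was 0.137, for Ifit1, with a fold of 1.98 up in R6/2. The table's direction for Usp18 was up as well, with a fold of 1.89.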

How the data were processed

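Per the file headers, the authors' scanner files come from Agilent Feature Extraction 10.7.3.1, and the deposited values used here are processed-signal intensities, already background-corrected and detrended. The deposited log2 values of the authors' table were these intensities on the log2 scale minus a constant per array, as found from the values. Its p-values come from an unpaired test with Benjamini-Hochberg correction, per the file headers, and its fold values, deposited without a sign, have a direction column. An intensity array has no read depth, so the 4 arrays per genotype limit the precision.

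Here, log2 processed signal minus log2 of each array's 75th percentile was fitted with limma 3.58.1 (R 4.3.3; lmFit, eBayes). Outlier spots were left out, spots of a probe averaged, and probes tested when well above background on at least 4 of 8 arrays. Per-probe p-values were adjusted over all 35121 probes. The fitting code was checked on simulated data with known changes. Alternatives were normexp background correction (offset 50), other scalings and filters, array weights, the replicate block, the authors' log2 values, the mean over a gene's probes, the methods' t-test and leaving out each array. Same-numbered arrays shared a slide position and their deviations correlated at 0.222, 0.183, 0.356 and 0.133, so the numbers were taken as pairs.

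Members and gene lists were chosen with earlier results of these data known. Every-array values are given for called members, for members whose genotypes did not overlap and for the 2 of smallest p in each class; from other lists, up to 4 called genes or the 2 of smallest p. Isg15, Irf7, Xaf1, Igtp, Irgm1, Tgtp2, Gbp4 and Irf1 were added after their values were seen. Probe positions are mm9. Ifi27 was found only through the authors' table. Some genes that this rule covers are not reported here.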

Additional observations from a re-analysis of the deposited data

Results flagged for a closer look

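In 10 cases 1 array of a genotype lay far outside the other 3 for a member, by Dixon's criterion, which chance alone meets in about 1 in 20 groups. In 8 of them the array was WT 3, and it was high: Irf1 at 0.95, Gbp4 at 0.43, Igtp at 0.99, Irgm1 at 0.036 and Tgtp2 at 2.82 among gamma members, and Ifitm3 at 2.02, Xaf1 at -0.63 and Parp14 at -0.74 among type I members. Over all genes tested, WT 3 was picked out as high for 1.22% and as low for 3.64%, while no other array was picked out as high for more than 0.789% or as low for more than 1.31%. The other cases were R6/2 1 for Rtp4, high at 0.88, and R6/2 4 for Gbp4, low at -3.50.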

How the results depend on the processing

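The median of the type I members was positive under all alternatives run, from 0.25 to 0.43 when 1 array was left out. The median of the gamma members ranged from -0.35 to 0.21 when 1 array was left out, positive only without WT 3, and was 0.091 with array weights. Array weights also turned Tgtp2 (0.33), Irf1 (0.011) and Ifitm3 (0.060), and normexp turned Igtp (-0.019). Normexp shrank the differences of several members of low signal, to 0.52 from 0.90 for Usp18 and to 0.18 from 0.64 for Irf7. It changed brighter ones less, as to 0.55 from 0.59 for Rtp4. Fold values of members of low signal thus depend on the background correction. Leaving out 1 array gave -0.85 to 0.66 for Tgtp2, -0.21 to 0.55 for Igtp, -1.14 to 0.084 for Gbp4, -0.33 to 0.13 for Irf1 and -0.39 to 0.24 for Ifitm3, and the cause was not tested.

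The number of members called was 1 in the main analysis, 3 with array weights (Ddx58, Ifit1, Rsad2), 3 with normexp (Ifit1, Ifit3, Usp18), 2 with quantile scaling and 2 with the filter on all 8 arrays (Ifit1, Usp18 in both). It was 0 with the filter on at least 1 array, with no filter, with the mean over probes and with the methods' t-test, and 0 to 2 without 1 array, where Ddx58 and Irgm1 were called without WT 3. Genes called over all numbered 344 of 17755 in the main analysis, 618 with array weights, 656 with normexp and 373 with quantile scaling. They numbered 305 with the mean over probes, 178 with the methods' t-test and 184 with the replicate block. With other filters they numbered 452 of 16645 (all 8 arrays), 151 of 19837 (at least 1 array) and 83 of 24520 (no filter). They numbered 329 without WT 3, and 80 to 140 without any 1 of the other arrays. The replicate block changed no member's call. Members wholly above WT numbered 9 of 41 with all arrays, against 7.61% of all genes tested. Without WT 3 they numbered 22 of 41, against 9.61% of all genes. The slide could not be used as a block because all arrays shared 1 slide. Signals near background, as for Mx1 and Oas3, set no value.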
